A study of Mus musculus with 2 samples.

Results

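The core circadian clock genes are the 10 genes whose products form the central transcription loop of the clock, and they were taken by gene name from the authors' table, where all 10 were found among 34745 listed genes. They are the activators *Arntl*, *Clock* and *Npas2*, the repressors *Per1*, *Per2*, *Per3*, *Cry1* and *Cry2*, and the Rev-erb receptors *Nr1d1* and *Nr1d2*. RNA of the liver was sequenced from male mice with a knockout of miR-182-5p (KO) and from male WT controls, all 8 to 10 weeks old, at day 3 after 2/3 partial hepatectomy (PH), a surgery that removed 70% of the liver in both genotypes. The KO mice were heterozygous, and no promoter that would limit the knockout to a cell type is named for them. The mice were kept under 12 h of light and 12 h of dark, and surgery took place in the early morning. The hour at which the livers were collected, and the number of mice behind each library, are not given in the sources used here. Each genotype has 1 library, so no difference below could be checked on replicates, and an effect of the genotype, of the animal and of the hour of collection cannot be told apart.

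The mammalian clock is a feedback loop of transcription that runs in nearly every cell. ARNTL (also called BMAL1) pairs with CLOCK, or with its paralog NPAS2, and the pair binds E-boxes in the promoters of the *Per*, *Cry* and *Nr1d* genes. PER and CRY proteins then return to the nucleus and block the pair, while the Rev-erb receptors, which are nuclear receptors that bind heme, repress *Arntl* and other activators through elements that they share with the ROR receptors. In mouse liver the transcripts of *Arntl*, *Clock* and *Npas2* are known to peak near dawn, those of *Nr1d1* and then of the *Per* genes during the day and at dusk, and those of *Cry1* late at night. The liver clock sets the daily rhythm of many metabolic genes, and feeding is one of the signals that sets its phase.

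Of the 10 clock genes, 4 were higher in the KO library by at least 2-fold (*Nr1d1*, *Per3*, *Nr1d2* and *Per2*) and 2 were lower by at least 2-fold (*Npas2* and *Arntl*), while *Cry2*, *Per1*, *Clock* and *Cry1* stayed within 2-fold. All 10 had at least 10 counts over both libraries, and 13561 genes did. Among these 13561 genes, 9.46% were higher and 9.94% lower by at least 2-fold. A gene is called higher or lower here when its log2 fold change, KO over WT, is at least 1 in size, and the libraries were scaled by TMM, a trimmed mean that keeps a few abundant transcripts from setting the scale. The median log2 fold change was −1.52 for the 3 activators, 0.97 for the 5 Per and Cry repressors and 1.95 for the 2 Rev-erb receptors, beside 0.00057 for all genes tested. The members had 58 (*Npas2*) to 827 (*Nr1d2*) counts over both libraries, and every interval below is an exact 95% interval that covers counting error only.

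The libraries had nearly the same depth, with 13247497 counts for KO and 13163348 for WT, but a different make-up. Transcripts of 13 mitochondrially encoded proteins took up 51.7% of KO reads and 31.0% of WT reads. With scaling by total counts the median over all genes was −0.60, and under that scaling 2 clock genes were higher and 3 lower by at least 2-fold, beside 4.6% and 26.6% of all genes (624 and 3605 genes, against 1283 and 1348 with TMM). Relative to that shifted median, each clock gene kept its TMM value to within 0.1 on the log2 scale. This follows from the arithmetic, since a change of scaling shifts every gene by nearly the same amount, and is no check of the TMM values. The miR-182 gene itself is not among the listed genes, so the genotype labels could not be checked on it. The labelled tissue was checked on 8 hepatocyte markers, which had at least 1517 counts in each library. Their summed level differed by a log2 ratio of −0.04, but *Alb* made up most of that sum (339876 of 623856 counts in KO, 536544 of 969251 in WT). Single markers ran from −2.96 (*Apob*) to 0.26 (*Serpina1c*).

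**Figure D1:**
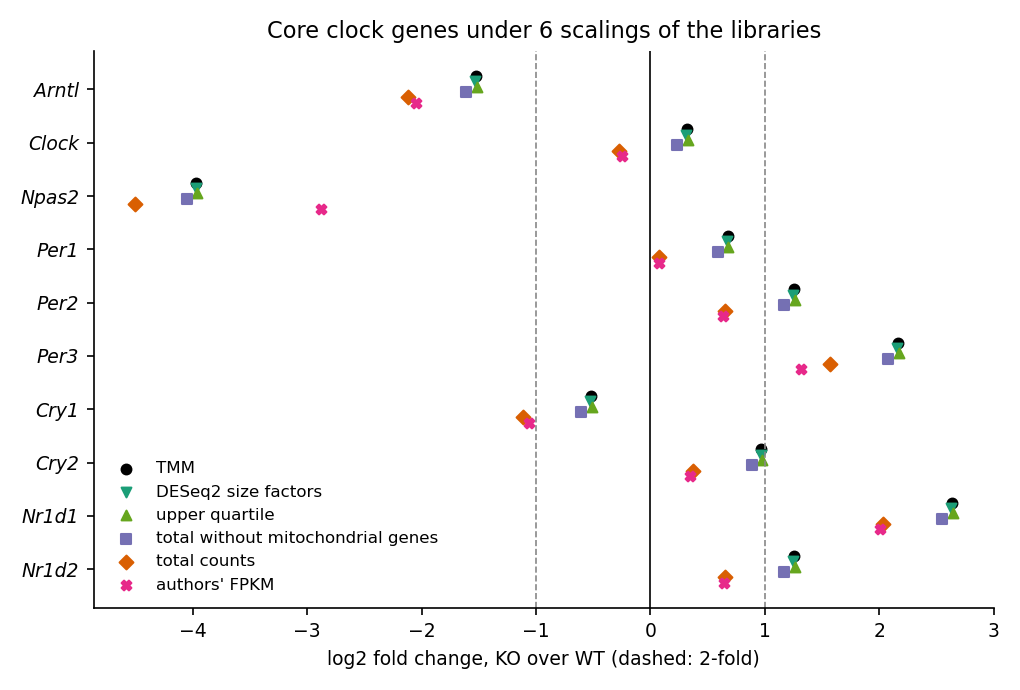
Log2 fold change, KO over WT, of each core clock gene under 6 scalings of the 2 libraries, with dashed lines at 2-fold. Total counts and the authors' FPKM shift the genes to the left, apart from *Npas2* with FPKM. The shift takes *Clock* below 0, *Cry1* past a 2-fold decrease, and *Per2* and *Nr1d2* inside 2-fold.

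**Figure D2:**
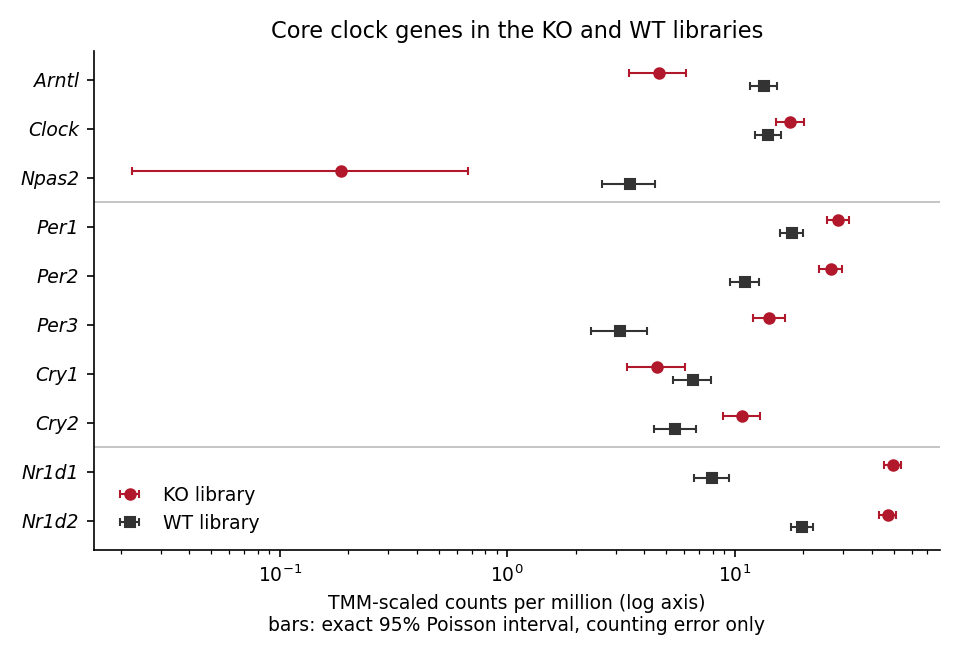
TMM-scaled CPM of the 10 core clock genes on a log axis, with circles for the KO library and squares for the WT library, 1 library each, and bars for the exact 95% Poisson interval. The KO circles lie far to the left of the WT squares for *Arntl* and *Npas2*, and also to the left for *Cry1*. They lie to the right for the other clock genes. The bars of the 2 libraries overlap for *Clock* and *Cry1*.

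The activator arm was lower in the KO library for 2 of its 3 genes. Coordinates are those of the authors' table and match GENCODE M21 on GRCm38 for 8 of the 10 members, all but *Arntl* and *Cry1*. *Arntl* (ENSMUSG00000055116, chr7:113207465-113314122, plus strand) encodes the partner that the activator complex cannot do without. It had 50 counts in KO and 218 in WT, or 4.65 and 13.4 TMM-scaled CPM (reads scaled to a common depth). Its log2 fold change was −1.52 (95% interval −2.01 to −1.08), a level 2.88-fold lower in the KO library, and 5.04% of all genes tested had a smaller value. The whole interval lies past a 2-fold change. In whole liver fewer cells of a type and less RNA per cell cannot be told apart.

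*Npas2* (ENSMUSG00000026077, chr1:39193731-39363236, plus strand), which can stand in for *Clock* as the partner of ARNTL, had 2 counts in KO and 56 in WT. The KO count lies under a floor of 3 counts, so the size of the change is poorly fixed. The scaled WT level was 18.6 times the KO level, with a counting interval from 4.91 to 157. *Npas2* was thus the clock gene nearest to absence in the KO library, with a deposited FPKM (a level per length and depth) of 0.031 against 0.861.

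*Clock* (ENSMUSG00000029238, chr5:76209868-76304792, minus strand) differed from the other activators. It had 189 counts in KO and 228 in WT, a log2 fold change of 0.32 (0.04 to 0.61). Its sign depended on the scaling, since it stood at −0.28 with total counts. The paralogs *Clock* and *Npas2* therefore did not keep their proportion. There were 94.5 *Clock* reads per *Npas2* read in KO and 4.07 in WT, a ratio of these ratios of 23.2 (5.97 to 198) that no scaling can change.

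The RefSeq promoter windows of GRCm38.p6, from 250 bases before to 50 bases after a transcription start, were searched on both strands for the E-box CACGTG, its variant CACGTT, the D-box in the forms TTATGTAA and TTACGTAA, the core AGGTCA of the element that Rev-erb and ROR receptors bind, and the full element of that name (RORE). A full element ends in the core or in GGGTCA, so the full match and the core can overlap, as they do in *Arntl*. Windows were found for 9 members, and *Per2* has none in the table. A full RORE was found in 0.459% of the 27025 genes with a window, and *Arntl* was the only clock gene with one, starting 27 bases after the second of its 2 annotated starts. The window is shown because this element is the known point at which the Rev-erb receptors act on *Arntl*, and the match is in capitals.
*Arntl*, chr7:113207261-113207560, plus strand: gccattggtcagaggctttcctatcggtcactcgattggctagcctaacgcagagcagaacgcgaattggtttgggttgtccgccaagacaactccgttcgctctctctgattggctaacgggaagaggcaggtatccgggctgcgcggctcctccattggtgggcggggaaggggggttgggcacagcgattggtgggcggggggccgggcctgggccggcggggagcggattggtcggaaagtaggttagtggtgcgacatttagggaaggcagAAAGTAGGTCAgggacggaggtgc
*Clock* held the core in 1 of 3 windows, 119 bases before the start, and none of the motifs was found in the window of *Npas2*. These are matches of letters in a short window and say nothing of binding in these livers.

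*Clock* was also the only clock gene whose longest annotated 3′ UTR holds a match to the seed of the microRNA that was knocked out. Mature miR-182-5p (RefSeq, GRCm38.p6) is encoded at chr6:30165962-30165986 on the minus strand, and its sequence is shown with the seed, bases 2 to 8, in capitals, above the matches in *Clock* (GENCODE M21), also in capitals.
miR-182-5p: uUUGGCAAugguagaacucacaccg
*Clock*, chr5:76216434-76216461, minus strand: atagaaagagtataTTGCCAAatgctaa
*Clock*, chr5:76210390-76210417, minus strand: aggtgtttacccctTTGCCAAaactaga
Both matches are followed by an A, the base that makes them sites of the longest canonical kind. The *Clock* UTR is 6831 bases long, against a median of 1130 bases over 12503 tested genes. Of these genes 1496, or 11.97%, hold at least 1 match, and 1 of 10 clock genes is no more than that share. The UTRs of the other 9 clock genes, 288 to 2631 bases long, hold 0. The log2 fold change of *Clock* was 0.32, with the dependence on scaling given above. With the 17 and 63 counts of *Ube2n-ps1*, a pseudogene within *Clock* on the same strand, added, the value was 0.09.

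The repressor arm was mixed. *Per3* and *Per2* were higher in the KO library by at least 2-fold, *Cry2* and *Per1* were above 0 but within 2-fold, and *Cry1* was below 0. *Per3* (ENSMUSG00000028957, chr4:151003652-151044665, minus strand), the member of the Per family that the loop can run without, had 153 counts in KO and 51 in WT. Its log2 fold change was 2.16 (1.71 to 2.66), or 4.48-fold, and it stayed past 2-fold with total counts, at 1.57. *Per3* lies in a region annotated to *Camta1* on the same strand, with no shared exon base, and with the 30 and 47 counts of *Camta1* added the value was 1.49, below that interval and still past 2-fold.

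*Per2* (ENSMUSG00000055866, chr1:91415982-91459324, minus strand) encodes a scaffold on which the repressor complex assembles, and is also known to respond to temperature and feeding. It had 285 counts in KO and 180 in WT. Its log2 fold change was 1.25 (0.98 to 1.53), so the lower end of the interval lies just inside 2-fold, and with total counts it was 0.65. *Per1* (ENSMUSG00000020893, chr11:69095217-69109960, plus strand), a Per gene that glucocorticoids are known to induce, was counted 307 and 290 times, with a log2 fold change of 0.67 (0.44 to 0.91), which shrank to 0.07 with total counts. The order of change was *Per3*, *Per2* and *Per1*, and this order did not rest on the scaling. The number of *Per3* reads per *Per1* read was 0.498 in KO and 0.176 in WT, a ratio of 2.83 (1.96 to 4.13), and *Per3* against *Per2* gave a ratio of 1.89 (1.29 to 2.80). These ratios leave out the reads of *Camta1*. With them added *Per3* stood at a log2 fold change of 1.49, nearer to *Per2* at 1.25.

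The cryptochromes, which bind the activator pair directly and block it, lay on opposite sides of 0. *Cry2* (ENSMUSG00000068742, chr2:92403646-92434043, minus strand) had 116 counts in KO and 89 in WT, a log2 fold change of 0.97 (0.56 to 1.39) that lies at the edge of 2-fold. *Cry1* (ENSMUSG00000020038, chr10:85131702-85185054, minus strand) was counted 49 and 106 times, which gave a log2 fold change of −0.52 (−1.04 to −0.02). With total counts *Cry1* was past a 2-fold decrease, at −1.11, and *Cry2* stood at 0.37. Within the libraries, *Cry2* had 2.37 reads per *Cry1* read in KO and 0.840 in WT. The ratio of these ratios was 2.82 (1.78 to 4.48), so the difference between the cryptochromes was larger than counting error whatever the scaling.

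The promoter windows of 4 of these repressors hold an E-box, its variant or a D-box, and they are shown because these are the elements through which the activators and the output factors of the clock are known to act. Capitals mark every match, among them 1 core AGGTCA in *Per1*, and the core and each variant E-box are on the opposite strand and so read TGACCT and AACGTG.
*Per1*, chr11:69098699-69098998, plus strand: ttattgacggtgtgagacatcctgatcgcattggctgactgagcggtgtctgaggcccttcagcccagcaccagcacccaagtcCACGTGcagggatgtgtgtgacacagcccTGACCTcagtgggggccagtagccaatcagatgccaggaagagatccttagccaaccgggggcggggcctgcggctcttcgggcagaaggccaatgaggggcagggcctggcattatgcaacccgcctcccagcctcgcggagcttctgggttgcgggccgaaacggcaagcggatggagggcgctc
*Per3*, chr4:151044616-151044915, minus strand: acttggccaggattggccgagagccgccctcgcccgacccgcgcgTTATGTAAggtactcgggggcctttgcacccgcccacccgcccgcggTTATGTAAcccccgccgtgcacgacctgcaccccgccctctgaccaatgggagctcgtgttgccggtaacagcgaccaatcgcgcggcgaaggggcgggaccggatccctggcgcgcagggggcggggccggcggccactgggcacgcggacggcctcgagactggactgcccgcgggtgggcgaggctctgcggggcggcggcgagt
*Cry1*, chr10:85185005-85185304, minus strand: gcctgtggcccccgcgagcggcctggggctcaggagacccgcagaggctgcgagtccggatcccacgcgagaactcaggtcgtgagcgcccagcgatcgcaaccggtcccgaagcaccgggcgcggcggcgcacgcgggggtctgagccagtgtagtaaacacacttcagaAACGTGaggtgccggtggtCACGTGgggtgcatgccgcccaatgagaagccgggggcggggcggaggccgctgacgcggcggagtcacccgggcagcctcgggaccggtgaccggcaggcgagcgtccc
*Cry2*, chr2:92434020-92434319, minus strand: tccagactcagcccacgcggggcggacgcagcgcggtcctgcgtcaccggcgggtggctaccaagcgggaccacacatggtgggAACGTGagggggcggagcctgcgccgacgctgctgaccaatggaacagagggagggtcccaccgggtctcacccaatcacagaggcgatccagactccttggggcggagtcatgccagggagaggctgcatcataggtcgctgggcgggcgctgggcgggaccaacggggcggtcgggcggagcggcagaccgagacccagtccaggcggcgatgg
*Per1* and *Cry1* hold an E-box, 166 and 60 bases before the start, and were the only members to do so, 2 of 9, beside 8.09% of all genes. *Cry1* also holds the variant, as do *Cry2* and *Nr1d1*, 3 of 9 members beside 5.44% of all genes. *Per3* holds 2 copies of the D-box, 205 and 158 bases before the start, which 1.23% of all genes have at least once. The core AGGTCA was found in 4 of 9 members, *Arntl*, *Clock*, *Per1* and *Nr1d2*, beside 18.1% of all genes. The E-box occurred both in *Per1*, at a log2 fold change of 0.67, and in *Cry1*, at −0.52.

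**Figure D3:**
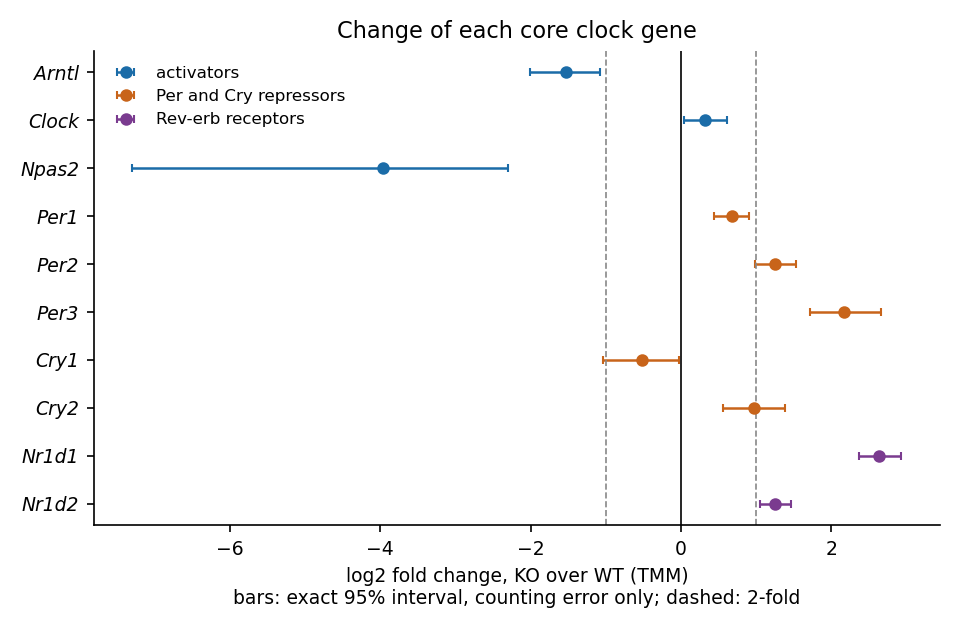
Log2 fold change, KO over WT, of each core clock gene with TMM scaling, with 1 library per genotype, bars for the exact 95% counting interval and dashed lines at 2-fold. The Rev-erb receptors, *Per2* and *Per3* lie past the right-hand line, *Arntl* and *Npas2* past the left-hand line, and *Clock*, *Per1*, *Cry1* and *Cry2* between them.

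The Rev-erb receptors were both higher in the KO library. *Nr1d1* (ENSMUSG00000020889, chr11:98767932-98775333, minus strand), which encodes Rev-erb alpha, had 534 counts in KO and 129 in WT, or 49.7 and 7.96 TMM-scaled CPM. Its log2 fold change of 2.64 (2.36 to 2.93), or 6.22-fold, was the largest increase among the clock genes, and 98.4% of all genes tested had a smaller value. *Nr1d2* (ENSMUSG00000021775, chr14:18204054-18239127, minus strand), which encodes Rev-erb beta, was counted 507 and 320 times, which gave a log2 fold change of 1.25 (1.05 to 1.46). With total counts *Nr1d1* remained past 2-fold, at 2.04, and *Nr1d2* did not, at 0.65. The change of *Nr1d1* exceeded that of *Nr1d2* by a factor of 2.61 (2.05 to 3.34) in the ratio of their reads, which was 1.05 in KO and 0.403 in WT.

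*Nr1d1* shares 263 exon bases with *Thra*, a thyroid hormone receptor gene on the opposite strand. Whether reads were counted by strand is not given in the sources used here, so reads from the shared stretch could belong to either gene. *Thra* had 29 counts in KO and 57 in WT, and with them added the log2 fold change of *Nr1d1* was 2.19, below the interval given above and still past 2-fold. *Nr1d2* shares 5.13% of its 50-base words with an unlisted gene. *Cry2* shares 295 exon bases with *D930015M05Rik* on the opposite strand, which had 0 counts in both, and *Arntl* shares 33 with *Gm45355*, which is not listed. *Ube2n-ps1* (17 and 63 counts) and *Gm43658* (0 in both) lie within *Clock*, and the unlisted *Gm20428* and *Gm3617* within *Npas2*, with no exon base shared. The promoter of *Nr1d1* is shown because it is a known target of the activator pair, with the variant E-box, 28 bases before the start, in capitals and again on the opposite strand.
*Nr1d1*, chr11:98775328-98775627, minus strand: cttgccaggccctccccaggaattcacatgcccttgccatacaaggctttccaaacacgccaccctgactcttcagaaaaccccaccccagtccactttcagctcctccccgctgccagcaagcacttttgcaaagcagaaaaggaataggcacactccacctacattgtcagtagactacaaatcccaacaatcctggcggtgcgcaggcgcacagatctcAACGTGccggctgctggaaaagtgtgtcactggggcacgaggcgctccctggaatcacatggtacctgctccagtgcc
The window of *Nr1d2* holds the core AGGTCA, 77 bases before its start, and neither form of the E-box.

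The contrast between the arms can also be given as pairs of genes within a library, where the scaling cancels. The KO library held 10.7 *Nr1d1* reads per *Arntl* read and the WT library 0.592, an 18.0-fold difference (12.4 to 26.4). For *Nr1d2* and *Arntl* the ratios were 10.1 and 1.47, a 6.91-fold difference (4.88 to 9.88). Summed over each arm, Rev-erb reads were 4.32 times the activator reads in the KO library and 0.894 times in the WT library, a 4.83-fold difference (3.98 to 5.86). The 3 Per genes against the activators, with the cryptochromes left out, gave 3.09 and 1.04, a 2.98-fold difference (2.45 to 3.62). With the cryptochromes the repressor arm had 910 reads in KO and 716 in WT, beside 241 and 502 for the activators. The activators did not move as a block, since *Clock* reads per *Arntl* read were 3.78 in KO and 1.05 in WT, a 3.61-fold difference (2.48 to 5.31). Each of these ratios excludes 1 by counting error, and none has a replicate check. They restate the counts behind the fold changes above without scaling, and so are no separate support for the contrast.

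**Figure D4:**
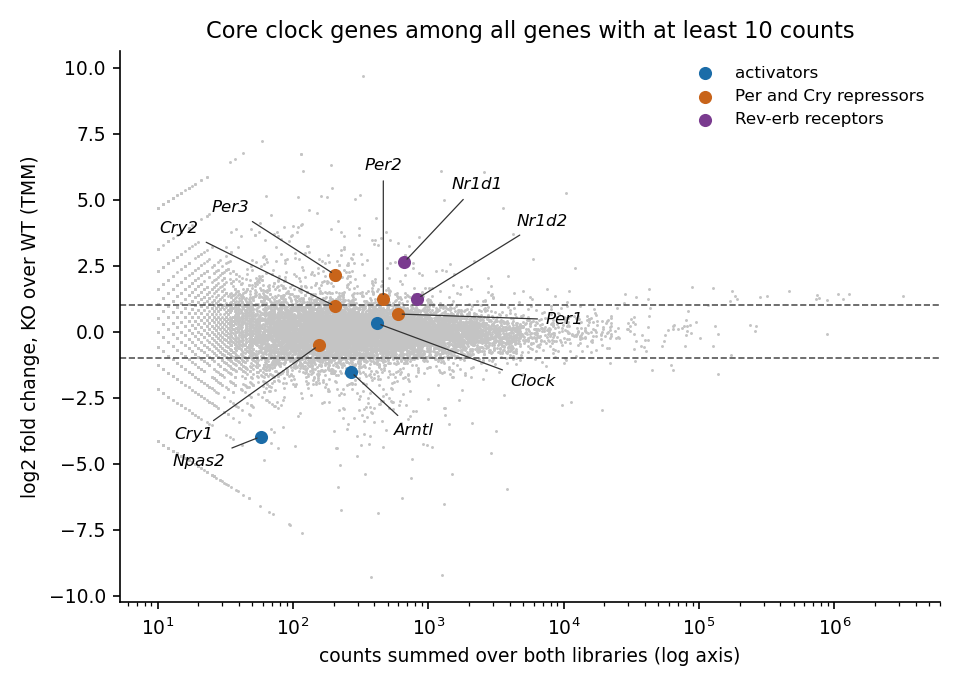
Log2 fold change, KO over WT, against the counts summed over both libraries on a log axis, for the 13561 genes with at least 10 counts (grey) and the 10 core clock genes (coloured by arm), with dashed lines at 2-fold. The clock genes lie between 58 and 827 summed counts, with *Nr1d1* and *Per3* above the main cloud and *Arntl* and *Npas2* below it.

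Per length, the order of the clock genes differed between the libraries. In the WT library *Arntl* had the highest level of the 10, at 5.70 FPKM (4.97 to 6.51), followed by *Nr1d2* at 4.16. *Nr1d1* (2.80), *Cry1* (2.67), *Per1* (2.67) and *Per2* (2.31) came next and could not be ranked beyond counting error. *Cry2* (0.979), *Npas2* (0.861) and *Clock* (0.779) followed with overlapping intervals, and *Per3* was lowest, at 0.305 (0.227 to 0.401). In the KO library *Nr1d1* stood highest, at 11.5 FPKM (10.6 to 12.5), then *Nr1d2* at 6.55, *Per2* at 3.64 and *Per1* at 2.80. *Arntl* (1.30), *Cry2* (1.27), *Cry1* (1.23) and *Per3* (0.909) came next with overlapping intervals, above *Clock* (0.641), and *Npas2* came last.

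Levels per length depend on the length that was used. The counts and FPKM of *Clock* imply a length of 22.2 kb and those of *Per3* 12.7 kb, while their longest coding transcripts in GENCODE M21 are 9.74 kb and 6.00 kb. Counted per kilobase of the longest coding transcript, *Clock* moved from place 9 to place 7 in both libraries and *Arntl* in the KO library from place 5 to place 8. *Per1* and *Per2* changed order in the KO library, with *Per1* at place 3 and *Per2* at place 4. *Nr1d1* and *Nr1d2* kept places 1 and 2 in the KO library, and *Arntl* and *Nr1d2* places 1 and 2 in the WT library. Over all genes, the median log2 fold change ran from −0.14 in the shortest of 5 length classes to 0.08 in the longest, which holds *Clock*, *Per2* and *Per3*.

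Outside the core loop, a list of 21 clock regulators (ROR receptors, casein kinases, ubiquitin ligases and co-repressors) was examined with a list of 16 output genes. Of 20 regulators tested, 2 were higher and 1 lower by at least 2-fold, with a median log2 fold change of −0.03, beside 9.46% and 9.94% of all genes. With total counts 1 was higher and 5 were lower, beside 4.6% and 26.6% of all genes. The gene that was lower with TMM was *Rora*, which encodes an activator of *Arntl* at the element that the Rev-erb receptors occupy. *Rora* had 126 counts in KO and 576 in WT, a log2 fold change of −1.60 (−1.89 to −1.32). *Rorb*, another gene of its family, had 0 counts in both. The higher regulators were *Ciart*, a repressor of the activator pair, with 34 and 16 counts (1.64, 0.78 to 2.64), and *Fbxl21*, a ubiquitin ligase for the cryptochromes, with 22 and 13 counts (1.31, 0.30 to 2.46), both low in number. With total counts *Fbxl21* was within 2-fold, at 0.73. *Ciart* shares 11.9% of its 50-base words with an unlisted gene.

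Apart from *Fbxl21*, the listed kinases and ligases that modify and degrade PER and CRY proteins stayed within 2-fold with TMM. The casein kinases *Csnk1d* and *Csnk1e*, which phosphorylate PER, stood at −0.21 (−0.40 to −0.02) and −0.69 (−1.24 to −0.17). *Btrc*, a ligase subunit that acts on PER, stood at 0.62 (0.26 to 0.99). *Ncor1* and *Hdac3*, the co-repressor and histone deacetylase recruited by the Rev-erb receptors, stood at 0.70 (0.52 to 0.87) and −0.46 (−0.67 to −0.26). With total counts *Csnk1e* (−1.29), *Hdac3* (−1.06), *Timeless* (−1.30) and *Usp2* (−1.48) were past a 2-fold decrease, as *Rora* was, and *Btrc* (0.02) and *Ncor1* (0.10) lay near 0. The authors' KEGG annotation of circadian rhythm gave 17 tested genes that are not members, with a median of −0.06 with TMM. Of these, 0 were past a 2-fold increase and 1, *Rora*, past a decrease, beside 9.46% and 9.94% of all genes.

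Among 14 output genes tested, 2 were higher and 1 lower by at least 2-fold, beside 9.46% and 9.94% of all genes. Their median log2 fold change was 0.22. With total counts 2 were higher and 5 lower, beside 4.6% and 26.6% of all genes. The list shares genes with that of the regulators, so the tallies are not separate. *Ciart* is counted as higher in both, and *Usp2* as lower in both with total counts. *Dbp*, a PAR bZIP factor that binds D-boxes and a known direct target of the activator pair, had 462 counts in KO and 62 in WT, a log2 fold change of 3.48 (3.10 to 3.90). *Dbp* shares 539 exon bases with *Sphk2* on the opposite strand, and with the 276 and 327 counts of *Sphk2* added the value was 1.51. Its relatives *Tef* and *Hlf* stood at 0.81 (0.06 to 1.59) and 0.27 (−0.07 to 0.62), and *Nfil3*, the repressor that competes for the D-box, at −0.33 (−0.56 to −0.10). *Bhlhe40*, which encodes a repressor that binds E-boxes, was lower, with 43 counts in KO and 328 in WT, a log2 fold change of −2.33 (−2.83 to −1.88). *Bhlhe40* and *Dbp* are both known targets of the activator pair and lay on opposite sides of 0. The metabolic output genes *Nampt* (0.17), *Alas1* (0.44), *Por* (−0.63) and *Cyp7a1* (−0.85) stayed within 2-fold with TMM. Of their intervals only that of *Cyp7a1* (−1.04 to −0.67) reached past 2-fold. With total counts *Por* (−1.23), *Cyp7a1* (−1.45), *Usp2* (−1.48) and *Tsc22d3* (−1.07) were past a 2-fold decrease with *Bhlhe40*, and *Hlf* (−0.33), *Nampt* (−0.43) and *Alas1* (−0.16) were below 0. *Bhlhe41*, with 8 counts in KO and 1 in WT, and *Wee1*, with 0 and 1, were not tested.

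**Figure D5:**
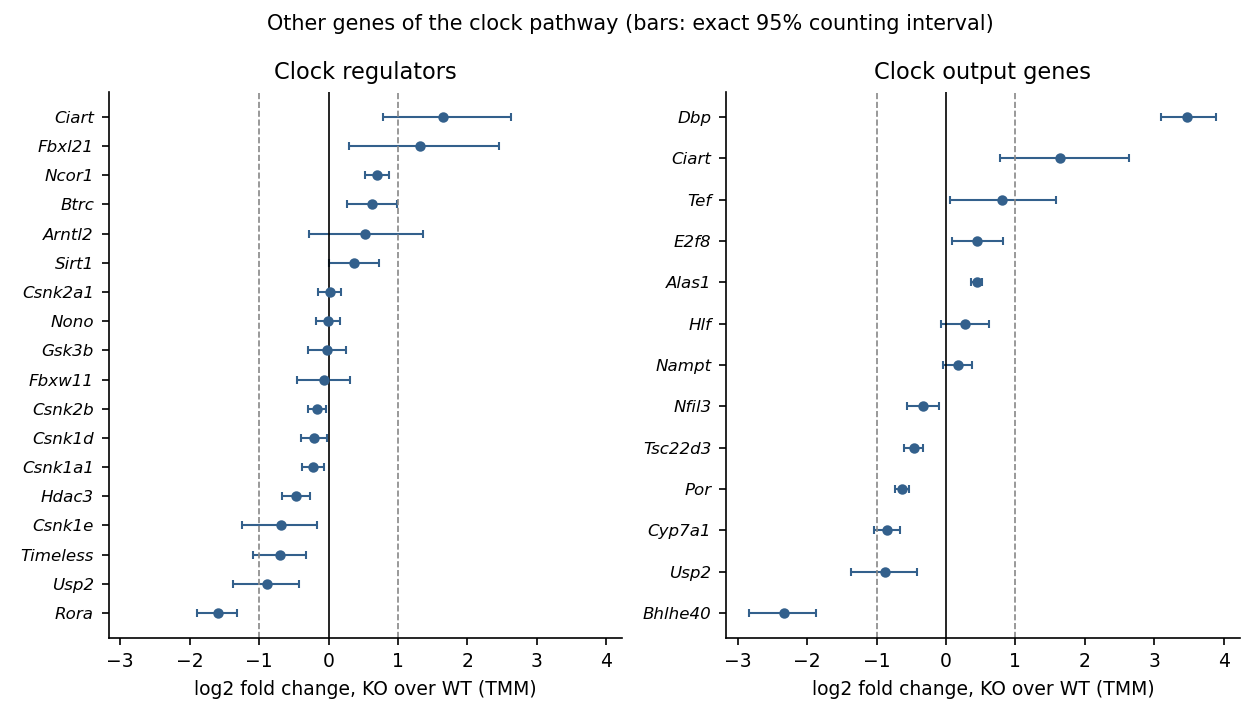
Log2 fold change, KO over WT, with TMM scaling for 18 of the tested clock regulators (left) and 13 of the tested output genes (right), with bars for the exact 95% counting interval and dashed lines at 2-fold, *Ciart* and *Usp2* being in both panels. Most genes lie between the dashed lines, with *Rora* and *Bhlhe40* to their left and *Dbp* farthest to the right.

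Markers of the other liver cell types were compared in the same way, and some of them differed by at least 2-fold. With TMM, 9.46% of all genes tested were higher and 9.94% lower by at least 2-fold, and the marker counts stand beside these shares. Of 8 stellate cell markers 3 were lower by at least 2-fold and 0 higher. Their summed TMM-scaled level was 72.5 CPM for KO and 107 CPM for WT. The 7 Kupffer cell and macrophage markers (2 lower, 0 higher) summed to 104 and 140 CPM, and the 7 endothelial markers (1 lower, 0 higher) to 71.2 and 88.8. Of 5 cholangiocyte markers tested, 2 were higher (*Krt19*, 26 and 7 counts, and *Krt7*, 15 and 6), both low in number. The 6 listed summed to 164 and 125 CPM, or to 1761 and 2032 counts before scaling. *Spp1* alone had 1638 and 1875 of these counts. Of 3 lymphocyte markers tested 1 was higher (*Cd79a*, 12 and 4 counts) and 1 lower (*Trbc2*, 3 and 15), and the 6 listed summed to 2.51 and 2.34 CPM, with *Cd3e* at 0 in KO and 3 counts in WT. Both neutrophil markers tested were within 2-fold (*S100a8*, 142 and 214 counts, and *S100a9*, 189 and 256), the 4 listed summed to 30.8 and 29.0 CPM, and *Ly6g* was at 0 in both. Of 3 erythroid markers tested 1 was higher and 1 lower, and the 4 listed summed to 73.2 and 59.6 CPM. Among 8 hepatocyte markers *Apob* was lower, at −2.96. With total counts the markers past a 2-fold decrease were 5 of 8 for stellate cells, 3 of 7 for Kupffer cells and macrophages, 4 of 7 for endothelial cells, 3 of 8 for hepatocytes and 2 of 3 for erythroid cells, beside 26.6% of all genes. The part of these differences in the values of the clock genes was not tested.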

How the data were processed

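The authors deposited unnormalized read counts per gene for 1 KO and 1 WT liver library, with FPKM values beside them. The submitters' processing notes name HISAT2 2.0.4, StringTie, edgeR and the build hg38, which is human, while the listed identifiers are mouse Ensembl genes. Of the 10 members, 8 have the same coordinates in GENCODE M21 (GRCm38). The annotation and strand setting are not given in the sources used here.

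Genes with under 10 counts in the libraries together were dropped. Counts were scaled by TMM (edgeR 4.0.16, R 4.3.3), log2 fold changes were taken with a prior count of 0.5, and exact 95% intervals (Clopper-Pearson for fold changes, Poisson for levels, conditional for ratios) cover counting error only. With 1 library per genotype no test between genotypes was possible and no p-value was computed. The steps were tested on simulated data in which both libraries had the same make-up, apart from genes changed on purpose in both directions. That setting could not test the scaling of libraries that differ in make-up, as these do. Python 3.11.15, scipy 1.17.1 and DESeq2 1.42.0 (size factors only) were also used. All members, and other clock genes past 2-fold, are named, with further list members chosen after their values were seen. The members, lists and alternatives were chosen with earlier results of these data known. The search for the full RORE was added after the data were seen. Likeness of pattern was not computed, since 2 libraries give none. The values of 3 listed genes that are not members are not reported here, though the list counts include them.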

Additional observations from a re-analysis of the deposited data

How the results depend on the processing

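No paired analysis was possible because KO and WT have only 1 library apiece, and for the same reason no replicate could be left out. The alternatives that moved the medians of the arms beyond the counting intervals behind them, or the number of clock genes called by over 1.5 times, were total counts and the authors' FPKM with a pseudocount of 0.1, under which the median log2 fold change was −2.12 and −2.05 for the activators, 0.37 and 0.34 for the Per and Cry repressors, and 1.34 and 1.32 for the Rev-erb receptors, and 2 members were higher by at least 2-fold in each case. The median over all genes moved to −0.60 and −0.54 under the same settings. Adding the reads of overlapping genes moved *Per3* from 2.16 to 1.49 and *Nr1d1* from 2.64 to 2.19, below their counting intervals. No called clock gene changed sign under any alternative run. *Clock*, which was not called, was below 0 under 2 of 10 settings. Over all genes, 624 were higher and 3605 lower with total counts, and 405 and 2934 with FPKM. A minimum of 1 count gave 2269 and 2763, since more genes were tested, a minimum of 50 counts gave 656 and 730, since fewer were, and a smaller change of 0.5 on the log2 scale gave 2992 and 3087, and 6 and 3 of the members. Total counts were tried for the other clock genes after the data were seen. They gave 1 higher and 5 lower of 20 regulators, and 2 higher and 5 lower of 14 output genes, with *Ciart* and *Usp2* counted in both lists. The shares over all genes were 4.6% and 26.6%. Among the members *Npas2*, with 2 counts in the KO library, had the widest counting interval.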
